A study of Mus musculus with 18 samples.

Results

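The genes described here encode the enzymes that attach prenyl lipids to proteins and finish the modified protein end. They are the subunits of farnesyltransferase (FT), of geranylgeranyl transferase I (GGT) and of the Rab geranylgeranyl transferase with its escort proteins, together with the enzymes that trim and methylate the prenylated end. They were chosen by gene symbol, Fntb, Fnta, Pggt1b, Rabggta, Rabggtb, Chm, Chml, Rce1, Icmt and Zmpste24, which gave 10 of the 55487 genes in the count table. All 10 passed the filter on low counts, as did 17414 genes in all.

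Frontal cortical RNA of 18 mice aged 9 to 10 months was sequenced as stranded mRNA libraries, with 3 females and 3 males in each of 3 genotypes. APP/PS1 mice carry a mutant human APP and a mutant human presenilin 1 transgene and develop amyloid deposits, and the methods describe them as homozygous for a floxed allele of the FT β-subunit, without Cre. APP/PS1/FTnKO mice carry the same transgenes and floxed alleles together with a Cre recombinase under the CaMKIIα promoter, which acts in forebrain neurons after birth, so that glia, vessel cells and neurons without that promoter keep the gene. WT mice lack the transgenes, and the methods describe them as littermates with floxed alleles and no Cre, whereas the record names the strain C57BL/6J, so their background is not settled. On the first account every group carries floxed Fntb alleles. Mice are separate animals and are named by their numbers.

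Prenylation is the attachment of a lipid from the cholesterol pathway to cysteines near the end of a protein, which lets the protein bind membranes. FT adds farnesyl to proteins such as H-Ras and Rheb, GGT adds the longer geranylgeranyl to other small GTPases, and the Rab enzyme adds geranylgeranyl to Rab proteins presented by an escort protein. FT and GGT share their α-subunit and differ in their β-subunit. After either of these lipids has been added, Rce1 removes the last residues of the protein, Icmt methylates the exposed cysteine, and Zmpste24 makes the cuts that mature prelamin A.

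Counts summed per mouse lay between 15925432 and 21030935, and RNA integrity numbers between 7.6 and 8.8. The members had 162 to 7472 counts in a mouse. WT mouse 19622 was kept apart. Its mean distance to the other WT mice over the 500 genes that differed most was 4.32 on the log2 scale, while the largest distance between any 2 of the other 17 mice was 2.73. Its RNA also went against the tissue label: a list of 4 forebrain genes summed to 1.84 CPM (counts scaled to the size of the library), with 2 of the 4 at 0, against 164 to 252 in the other mice, and a list of 5 cerebellar genes summed to 2470 CPM against 22.9 to 49.3. The results are from the 17 other mice unless stated, with the 18-mouse values given where a call or a direction rests on them. As a check of the labels, App, carried by the transgene, was at 1530 ± 51.2 CPM (SD, n = 5) in WT and rose by 0.90 (log2, SE 0.095, edgeR adjusted p = 6.7e-05) in APP/PS1 and by 0.93 (SE 0.095, edgeR adjusted p = 5.41e-05) in APP/PS1/FTnKO mice. Prnp, whose promoter drives the transgenes, rose by 1.58 (SE 0.080, edgeR adjusted p = 2.71e-09) and 1.62 (SE 0.080, edgeR adjusted p = 1.78e-09).

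Fntb, the β-subunit of FT and the gene targeted in the knockout, lies on chromosome 12 at chr12:76765589-76921412 on the plus strand (GRCm38). The annotation gives it 8 transcripts, and they begin in separate places. Fntb-203 and Fntb-206 begin at the start of the gene, inside the neighbouring gene Churc1, whereas Fntb-201 begins 71825 bases further on. A count per gene adds the reads of all of them, and also those of any exon that Cre leaves in place. The sources used here do not say which exons are floxed, so the Fntb count alone does not measure the deletion. RefSeq windows, 250 bases before to 50 after a gene's start, are shown for both places, with the GC box GGGCGG in capitals. The downstream window is that of Fntb, and for the upstream place it is that of Churc1, which ends just before Fntb-203 and Fntb-206 begin. The Fntb window is chr12:76837217-76837516 and the Churc1 window chr12:76765288-76765587, both on the plus strand of GRCm38.p6.
Fntb: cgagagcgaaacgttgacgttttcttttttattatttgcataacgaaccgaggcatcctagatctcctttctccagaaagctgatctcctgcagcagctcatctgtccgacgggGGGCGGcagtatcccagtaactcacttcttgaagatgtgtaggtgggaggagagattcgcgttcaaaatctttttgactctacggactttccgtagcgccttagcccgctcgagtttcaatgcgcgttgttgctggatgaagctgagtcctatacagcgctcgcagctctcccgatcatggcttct
Churc1: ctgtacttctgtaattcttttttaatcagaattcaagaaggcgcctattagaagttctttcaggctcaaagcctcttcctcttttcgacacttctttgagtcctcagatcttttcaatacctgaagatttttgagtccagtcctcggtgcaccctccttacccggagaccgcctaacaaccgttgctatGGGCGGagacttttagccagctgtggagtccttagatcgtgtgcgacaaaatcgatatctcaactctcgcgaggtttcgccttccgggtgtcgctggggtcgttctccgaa
Each window held 1 GC box. Of the 10 members, 8 had a window in the table, and a search on both strands found GGGCGG in 4 of them (Fntb, Rabggtb, Rce1 and Icmt), where 35.9% of all 27025 windows held it. CCAAT was in 2, Rce1 and Zmpste24 (37.9% of all windows), CACGTG was in 1, Rce1 (7.24%), and TATAAA was in 0 (14.2%). Each motif was searched by itself, so that matches of different motifs may overlap. The windows of the 8 members held 8 to 47 CpG dinucleotides, against a median of 7 over all windows, and Icmt had both the most CpG and the highest GC content, at 76.0%. The Fntb window held 21 CpG at 50.3% GC.

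The knockout comparison asks what differs with loss of neuronal FT in mice with the APP/PS1 transgenes. Only the APP/PS1/FTnKO mice carry Cre, so an effect of Cre itself cannot be told apart from loss of FT. The mean Fntb level was lower with the knockout, with an exact permutation p under 0.05 for this gene taken by itself, but the test across all genes did not call the difference. In normalized CPM, the 3 male APP/PS1/FTnKO mice had 14.7, 9.24 and 11.5 and the 3 females 13.9, 13.6 and 7.84. The APP/PS1 males had 14.3, 14.2 and 17.1 and the females 28.7, 32.1 and 14.6. The groups overlapped only at their edges: 4 APP/PS1 mice lay between 14.2 and 17.1 CPM, next to the 14.7 of the highest APP/PS1/FTnKO mouse, and the other 2 lay well above. The means were 11.8 ± 2.76 (SD, n = 6) and 20.2 ± 8.06 (SD, n = 6). The log2 fold change was -0.77 (SE 0.26, 95% interval -1.32 to -0.22) with an edgeR adjusted p of 0.251. An exact permutation test of the log2 values over all 924 regroupings of the 12 mice gave a two-sided p of 0.0108, and over the 400 regroupings that keep each sex in balance an exact p of 0.015.

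Against WT mice the Fntb difference was of the same direction, and its call depended on the tool. The WT males had 16.8, 32.2 and 30.8 CPM and the WT females kept in the comparison 14.1 and 16.9, a mean of 22.2 ± 8.6 (SD, n = 5). Here too the groups overlapped, since the lowest WT mouse lay just under the highest APP/PS1/FTnKO mouse. The log2 fold change of APP/PS1/FTnKO against WT was -0.93 (SE 0.27, 95% interval -1.50 to -0.35), with an adjusted p of 0.0658 by edgeR, 0.0834 by limma-voom and 0.0419 by DESeq2. With all 18 mice it was -1.08 with an edgeR adjusted p of 0.06. APP/PS1 and WT mice differed in Fntb by -0.15 (SE 0.27, 95% interval -0.73 to 0.42, edgeR adjusted p = 0.843), an interval that spans changes of either sign larger than those of most other members. This value moved to -0.40 with the RNA integrity number as covariate (edgeR adjusted p = 0.804) and to -0.33 with all 18 mice (0.633), and the median integrity number was 8.2 in the 6 APP/PS1 and 8.7 in the 6 WT mice.

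**Figure D1:**
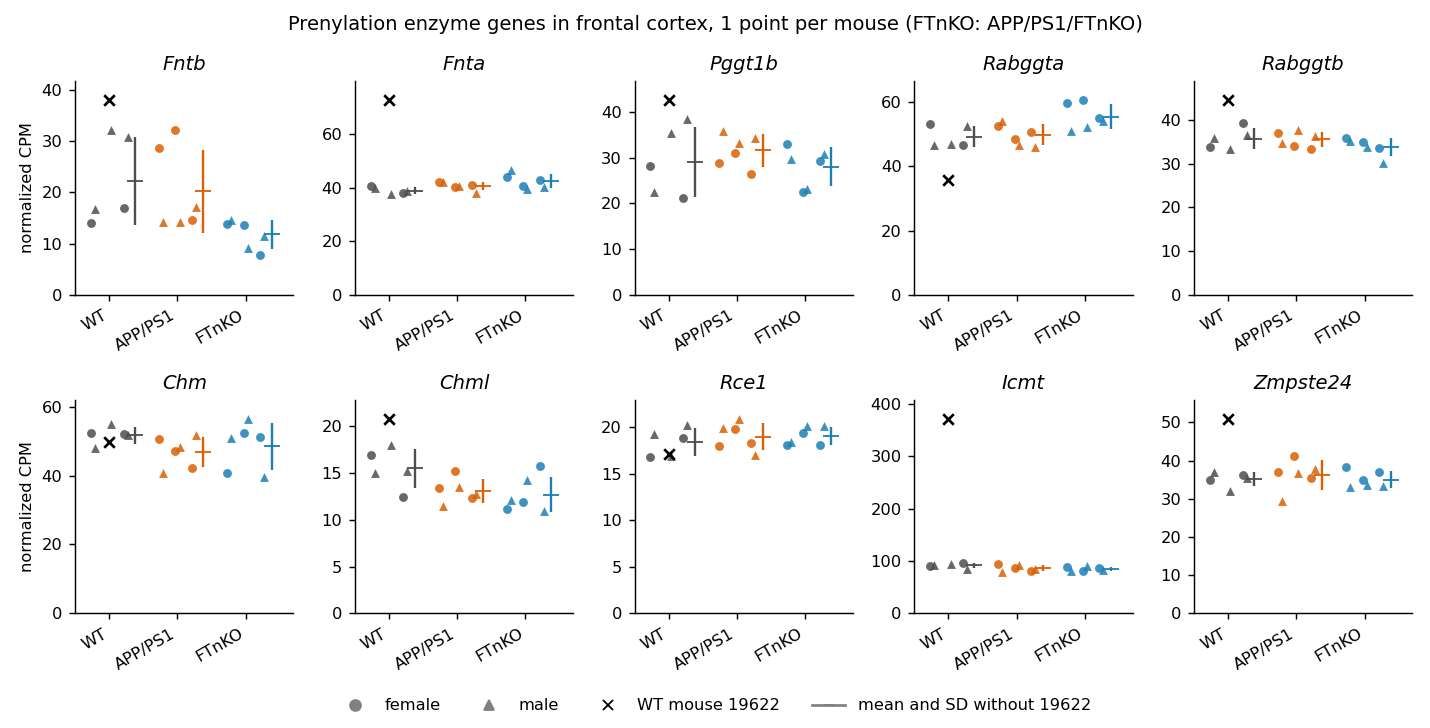
Normalized CPM of the 10 prenylation enzyme genes (y axis, from 0) in each mouse by genotype (x axis; FTnKO stands for APP/PS1/FTnKO). Circles are females, triangles males, the cross is WT mouse 19622, and the bar beside each group is the mean and SD without it. Fntb in the APP/PS1/FTnKO mice lay between 7.84 and 14.7 CPM, and 2 APP/PS1 and 2 WT mice lay at 28.7 to 32.2 CPM.

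Fntb varied more between mice than any other member. Over the 17 mice its highest value was 4.11 times its lowest, against 1.22 to 1.82 times for the other 9, and its dispersion in edgeR was at the 91.8 percentile of all tested genes. The values fell into separate sets: 4 mice, the APP/PS1 females 19553 and 19554 and the WT males 19718 and 19721, had 28.7 to 32.2 CPM, and the other 13 had 7.84 to 17.1. WT mouse 19622, at 37.9, was above them all. Both genotypes without Cre had mice in both sets, and no APP/PS1/FTnKO mouse was in the upper one. In the lower set the 4 APP/PS1 mice had 14.2 to 17.1 CPM, the 3 WT mice 14.1 to 16.9 and the 6 APP/PS1/FTnKO mice 7.84 to 14.7. Leaving out any single mouse moved the fold changes of APP/PS1/FTnKO mice by less than 1.5 times. Leaving out APP/PS1 mouse 19554 moved the difference from APP/PS1 to -0.59 (edgeR adjusted p = 0.456) and leaving out mouse 19553 to -0.65 (0.405). Against WT, leaving out mouse 19718 gave -0.75 (edgeR adjusted p = 0.169) and leaving out mouse 19721 gave -0.78 (0.149). With 3 mice of a sex in a group, the difference between sexes in the knockout effect on Fntb, males minus females, was 0.73 (SE 0.42, 95% interval -0.16 to 1.62, edgeR adjusted p = 1).

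In bulk tissue, fewer cells of a type and less RNA per cell cannot be told apart. The summed level of 4 neuron markers was also lowest by median in the knockout, but not every marker was. Of the 4, Rbfox3 marks neurons in general and not excitatory neurons alone. The sum was 3230 to 4930 CPM in APP/PS1/FTnKO mice (median 3590), 3910 to 5960 in APP/PS1 mice (median 4980) and 4450 to 6150 in WT mice (median 4760), with 0 of the 4 at 0 in any mouse. Most of that sum was Camk2a, and most of the rest Slc17a7. Without Camk2a the other 3 summed to 930 to 1270 (median 1100), 1130 to 1740 (median 1330) and 1250 to 1780 CPM (median 1360) in the same order. Camk2a, whose promoter drives the Cre and which encodes a kinase of excitatory synapses, had a mean of 2670 ± 542 CPM (SD, n = 6) with and 3570 ± 654 (SD, n = 6) without the knockout in mice with the transgenes. The log2 difference was -0.42 (SE 0.13), with an adjusted p of 0.196 by edgeR and 0.0491 by DESeq2. With all 18 mice it was -0.42 with an edgeR adjusted p of 0.964. Of the other 3, Slc17a7, a vesicular glutamate transporter, differed by -0.38 (SE 0.11), with an adjusted p of 0.177 by edgeR and 0.0494 by DESeq2. With all 18 mice Slc17a7 differed by -0.38 with an edgeR adjusted p of 0.884. Neurod6 and Rbfox3 differed by 0.00 and -0.04 in the 17 mice, with edgeR adjusted p values of at least 0.834. The median of Neurod6 was highest in the knockout, at 63.7 CPM against 54 in APP/PS1 and 58.3 in WT mice. Against WT mice Slc17a7 fell by 0.46 on the log2 scale (SE 0.12) with an adjusted p of 0.0396 by edgeR and 0.00567 by DESeq2, and Camk2a differed by -0.39 (SE 0.13) with 0.0983 and 0.0384. With all 18 mice these differences were -0.26 (edgeR adjusted p = 0.557) for Slc17a7 and -0.12 (0.919) for Camk2a. Neurod6 and Rbfox3 differed by -0.15 (0.13 with 18 mice) and -0.08 in that comparison of 17 mice, with edgeR adjusted p values of 0.742 and 0.378. Their part in the Fntb difference was not tested.

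For the other 9 members no change passed the test in the knockout comparison. The 95% interval of each gene bears on its level in bulk tissue, and a change within the targeted neurons alone was not measured. Over the 10 members 0 were called by edgeR, where 0.327% of all tested genes were called, and 0 by DESeq2 (1.76% of all genes) and by limma-voom (0.253%). At an unadjusted p under 0.05 there were 2 by each of these tools, in edgeR Fntb and Rabggta, where 11.5% of all genes passed in edgeR. With all 18 mice edgeR also called 0 of the members (0.0116% of all genes) and 1 had an unadjusted p under 0.05, as did 6.66% of all genes. The members' median log2 fold change was -0.036 and that of all genes -0.0016. Without Fntb and Pggt1b the 95% intervals of the remaining 8 members lay within -0.27 to 0.27 on the log2 scale.

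Fnta, the α-subunit that FT and GGT share (chr8:25998722-26015650), was not lower with the knockout. Its values were 39.6 to 46.6 CPM (median 41.9) in APP/PS1/FTnKO, 38.2 to 42.2 (median 40.8) in APP/PS1 and 37.6 to 40.5 (median 38.7) in WT mice, and the groups overlapped. The log2 fold change was 0.06 (SE 0.047, 95% interval -0.04 to 0.16, edgeR adjusted p = 0.679) against APP/PS1 and 0.12 (SE 0.050, 95% interval 0.02 to 0.23, edgeR adjusted p = 0.166) against WT mice. The latter value turned to -0.07 with WT mouse 19622 in the fit.

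Pggt1b, the β-subunit of GGT, is the member that would pair with Fnta in place of Fntb. It lies on chromosome 18. Its values were 22.4 to 32.9 CPM (median 29.5) in APP/PS1/FTnKO, 26.5 to 35.9 (median 32) in APP/PS1 and 21.1 to 38.4 (median 28.2) in WT mice. It was second to Fntb in spread, and the groups overlapped. Its log2 fold change was -0.16 (SE 0.13, 95% interval -0.43 to 0.11, edgeR adjusted p = 0.679) in the knockout comparison and -0.02 (95% interval -0.31 to 0.26, edgeR adjusted p = 0.94) against WT mice, which became -0.16 with all 18 mice (edgeR adjusted p = 0.621). A rise of more than 0.11 on the log2 scale over APP/PS1 mice was thus outside the interval. The value was -0.09 without mouse 18973 and -0.24 without mouse 18943, both APP/PS1/FTnKO.

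Since these subunits act as pairs, their levels were set side by side per kilobase of annotated exon, a scale on which genes of unlike length can be compared. The Fnta level per kb was above the summed levels of Fntb and Pggt1b in each of the 17 mice. The ratio was 2.33 to 3.21 in APP/PS1/FTnKO (median 2.52), 1.25 to 2.3 in APP/PS1 (median 1.94) and 1.13 to 2.26 in WT mice (median 2.09). The lowest APP/PS1/FTnKO mouse lay just above the highest of the other genotypes, a ratio that moved with Fntb and was not tested. Fntb made up 44 to 64.1% of the summed β-subunit level in APP/PS1/FTnKO mice, 53.9 to 75.3% in APP/PS1 and 59.7 to 72.9% in WT mice, again with overlap.

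Rabggta, the α-subunit of the Rab geranylgeranyl transferase (chr14:55715416-55722263), was the only member other than Fntb with an unadjusted p under 0.05 in the knockout comparison. It had 50.9 to 60.5 CPM (median 54.5) in APP/PS1/FTnKO, 46.1 to 54.1 (median 49.6) in APP/PS1 and 46.7 to 53.1 (median 47) in WT mice. The lower APP/PS1/FTnKO values lay among those of the other groups, and 3 of the 6, all females, lay above every APP/PS1 and WT mouse. The log2 fold change was 0.15 (SE 0.054, 95% interval 0.04 to 0.27, edgeR adjusted p = 0.275) against APP/PS1 and 0.16 (SE 0.057, 95% interval 0.04 to 0.28, edgeR adjusted p = 0.112) against WT mice. Rabggtb, its β-subunit (chr3:153907287-153913009), had 30.1 to 35.9 CPM (median 34.3), 33.4 to 37.7 (median 35.5) and 33.3 to 39.2 (median 35.8) in the same order, with log2 fold changes of -0.07 (95% interval -0.18 to 0.05) and -0.08 (95% interval -0.20 to 0.04) and edgeR adjusted p values of 0.685 and 0.445. Per kb, the ratio of Rabggta to Rabggtb was 0.931 to 1.15 in APP/PS1/FTnKO, 0.797 to 1 in APP/PS1 and 0.766 to 1.01 in WT mice. Small nucleolar RNA genes lie within Rabggtb, with 71 and 80 exonic bases shared with Snord45b and Snord45c.

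The escort proteins, which present Rab proteins to that enzyme, are encoded by Chm on the X chromosome (chrX:113040593-113185517) and Chml on chromosome 1 (chr1:175682237-175692901). Chm had 39.6 to 56.4 CPM (median 51.1) in APP/PS1/FTnKO, 40.7 to 51.8 (median 47.7) in APP/PS1 and 48 to 54.9 (median 51.9) in WT mice. Chml had 11 to 15.8 (median 12), 11.5 to 15.2 (median 13.1) and 12.5 to 18 (median 15.2), so that the APP/PS1/FTnKO and APP/PS1 mice covered nearly the same range and the WT mice reached higher. For Chml the log2 fold change was -0.05 (95% interval -0.27 to 0.18, edgeR adjusted p = 0.912) in the knockout comparison. Against WT it was -0.24 in APP/PS1 (SE 0.11, edgeR adjusted p = 0.342) and -0.29 in APP/PS1/FTnKO mice (SE 0.11, edgeR adjusted p = 0.139), comparisons that share the WT mice. Chm differed by 0.05 (95% interval -0.13 to 0.23), -0.15 (-0.33 to 0.04) and -0.09 (-0.28 to 0.09) in the same 3 comparisons. Chml shares 461 exonic bases with Opn3 on the same strand, and the sources used here do not say how the counting treated shared bases.

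None of the enzymes that act after the lipid has been added passed the test. Their highest value over the 17 mice was 1.25 (Rce1), 1.22 (Icmt) and 1.41 (Zmpste24) times the lowest. Rce1, the protease that removes the last residues (chr19:4622591-4625641), had 16.8 to 20.9 CPM over all 17 mice and a log2 fold change of 0.00 (SE 0.064, 95% interval -0.13 to 0.14, edgeR adjusted p = 0.996) in the knockout comparison. Icmt, the methyltransferase (chr4:152297227-152307121), had 80.4 to 90.7 CPM (median 84.9) in APP/PS1/FTnKO, 79.5 to 94 (median 85.7) in APP/PS1 and 85.3 to 96.9 (median 92.5) in WT mice. Its log2 fold change was -0.02 (SE 0.052, 95% interval -0.13 to 0.08, edgeR adjusted p = 0.906) against APP/PS1 and -0.11 (SE 0.054, 95% interval -0.22 to 0.00, edgeR adjusted p = 0.246) against WT mice. With WT mouse 19622 in the fit the difference from WT was -0.65 (edgeR adjusted p = 0.234), and that of APP/PS1 from WT moved from -0.09 to -0.62 (0.339). Zmpste24, the prelamin protease (chr4:121059237-121098241), had 29.4 to 41.3 CPM, with -0.05 (SE 0.062, 95% interval -0.18 to 0.08, edgeR adjusted p = 0.807) in the knockout comparison. Against WT mice Rce1 differed by 0.05 in each of the other genotypes, and in APP/PS1 and APP/PS1/FTnKO mice Zmpste24 differed by 0.04 (95% interval -0.10 to 0.18) and -0.02 (95% interval -0.15 to 0.12). For each of these genes the groups overlapped in every comparison.

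The APP/PS1 against WT comparison asks what differs with the transgenes, and any difference in strain or floxed alleles on the second account of the WT mice cannot be told apart from them. edgeR called 0 of the 10 members, with 1.5% of all genes called, DESeq2 called 0, with 2.69% called, and limma-voom called 0, with 1.09% called. At an unadjusted p under 0.05 there was 1 member by both tools, in edgeR Chml, and 0 by limma-voom, where edgeR gave 14% of all genes. With all 18 mice 0 were called (1.2% of all genes) and 2 had an unadjusted p under 0.05, as did 14.3% of all genes. The median log2 fold change of the members was -0.0018, beside -0.0023 for all genes. In APP/PS1/FTnKO against WT mice edgeR called 0 of 10, with 3.87% of all genes called, limma-voom called 0, with 3.77% called, and DESeq2 called 1, Fntb, with 8.41% called. Each of these tools gave 4 members at an unadjusted p under 0.05, in edgeR Fntb and Chml lower and Fnta and Rabggta higher, beside 22.1% of all genes. With all 18 mice 0 were called (1.51% of all genes) and 4 had an unadjusted p under 0.05, as did 19.1% of all genes. The members' median there was -0.052 and that of all genes 0.0053.

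**Figure D2:**
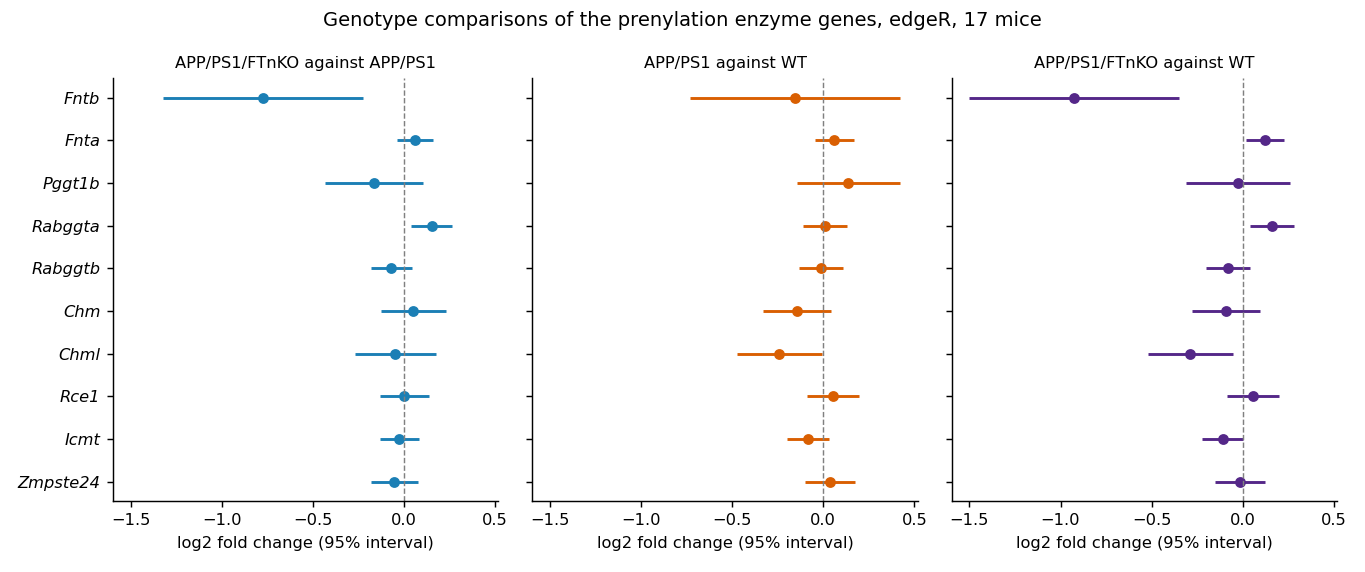
Log2 fold change of each prenylation enzyme gene (points, x axis) with its 95% interval (lines) in the 3 genotype comparisons, from edgeR on 17 mice. Fntb lay at -0.77 and -0.93 in the comparisons of APP/PS1/FTnKO mice, with the widest intervals, and the other 9 genes lay between -0.29 and 0.16.

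Both sexes were sampled in each genotype. Between males and females 0 of the 10 were called by edgeR, with 0.0689% of all genes called, 0 by DESeq2 (0.189% of all genes), and 0 had an unadjusted p under 0.05 by either tool, beside 6.7% of all genes by edgeR and 6.83% by DESeq2. For the difference between sexes in the knockout effect 0 members were called by edgeR, with 0% of all genes called (578 had an unadjusted p under 0.05), and 0 by DESeq2, which called 1 gene, 0.00575% of all. No member had an unadjusted p under 0.05 in that test by either tool.

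Per kb of exon the members spanned a wide range, and their order was much the same in the 3 genotypes. In WT mice Icmt was highest at 17.3 ± 0.822 CPM per kb (SD, n = 5), followed by Rabggtb at 14.8 ± 0.962, Rabggta at 13.1 ± 0.868 and Fnta at 12.9 ± 0.407. Each of these neighbours overlapped with the next, and the mice of Fnta did not reach down to those of Rce1, at 8.84 ± 0.723. Chm followed at 7.63 ± 0.362, Fntb at 5.56 ± 2.16 and Zmpste24 at 4.91 ± 0.255, with overlap at each step from Rce1 to Zmpste24. Pggt1b at 2.48 ± 0.65 and Chml at 2.22 ± 0.299 were lowest, apart from Zmpste24 and overlapping with each other. In APP/PS1/FTnKO mice Fntb was at 2.96 ± 0.693 CPM per kb (SD, n = 6), below Zmpste24 without overlap and overlapping with Pggt1b at 2.39 ± 0.364. In APP/PS1 mice it was at 5.05 ± 2.02 (SD, n = 6), overlapping with Zmpste24 at 5.08 ± 0.549 and above Pggt1b without overlap. These orders rest on the length counted as exon, which joins the exons of all annotated transcripts. With the length of the longest coding transcript Rabggtb (25.2 CPM per kb) and Fnta (20.2) came before Icmt (18.6) in WT mice, and Zmpste24 (10.2) before Fntb (8.48).

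**Figure D3:**
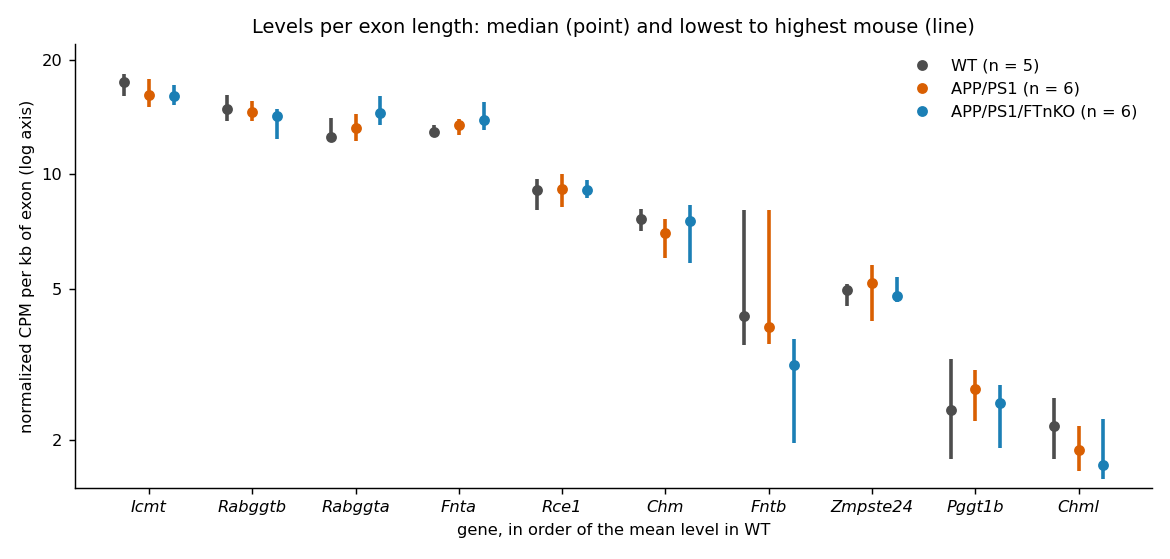
Normalized CPM per kb of annotated exon (y axis, log scale) for the 10 genes in the order of their WT mean (x axis), as the median (point) and the lowest to highest mouse (line) of each genotype, without WT mouse 19622. Icmt was highest on this scale, and Fntb in APP/PS1/FTnKO mice lay at 1.97 to 3.68, beside Pggt1b.

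Whether paired subunits rose and fell together between mice was examined on values freed of genotype and sex means, with permutation tests and adjustment over 2 pairs. Fnta and Pggt1b gave a Pearson r of 0.248 (permutation p = 0.335, adjusted 0.624) and a Spearman rho of 0.287 (permutation p = 0.262, adjusted 0.353) over 17 mice, and r was 0.176 without the 2 mice farthest from the median. Rabggta and Rabggtb gave r = -0.128 (permutation p = 0.624, adjusted 0.624) and rho = -0.24 (permutation p = 0.353, adjusted 0.353), and r was -0.216 without 2 mice. No correlation is given for Fnta and Fntb, because the mice fell into separate sets by Fntb itself.

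The genes around Fntb were examined because the floxed allele and its flanking sequence travel together. Within 250 kb, 6 other genes passed the filter on low counts, namely Plekhg3, Sptb, Churc1, Rab15, Max and Gm47218. Rab15, a Rab protein gene on the opposite strand within the span of the longest Fntb transcripts, had 223 to 275 CPM (median 251) in APP/PS1/FTnKO, 249 to 323 (median 292) in APP/PS1 and 281 to 329 (median 295) in WT mice. The APP/PS1/FTnKO and WT mice did not overlap in Rab15, and the share of all genes without overlap was not counted. The log2 fold change of Rab15 against WT was -0.26 (SE 0.067, 95% interval -0.40 to -0.12). The adjusted p was 0.0378 by edgeR (3.87% of all genes called) and 0.00774 by DESeq2 (8.41% called). Against APP/PS1 mice the log2 fold change was -0.21 (SE 0.064, 95% interval -0.34 to -0.08), with an adjusted p of 0.196 by edgeR and 0.0829 by DESeq2. With all 18 mice the difference from WT was -0.09 with an edgeR adjusted p of 0.816, with WT mouse 19622 at 112 CPM.

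Churc1, which overlaps the first Fntb exons on the same strand by 257 exonic bases, had 4.95 to 6.41 CPM over the 17 mice and differed by -0.07 (95% interval -0.25 to 0.11, edgeR adjusted p = 0.813) in the knockout comparison. Sptb, a spectrin gene 55042 bases away, had 223 to 271 CPM in APP/PS1 mice and 288 to 323 in WT mice, groups that did not overlap (the share of all genes was not counted). Its log2 fold change of -0.22 (SE 0.060) had an adjusted p of 0.0934 by edgeR (1.5% of all genes called) and 0.0299 by DESeq2 (2.69% called). With all 18 mice it was -0.36 (edgeR adjusted p = 0.172), with WT mouse 19622 at 504 CPM. In the knockout comparison the log2 fold change of Sptb was 0.10 (SE 0.058, edgeR adjusted p = 0.57). Max, Plekhg3 and Gm47218 had edgeR adjusted p values of at least 0.275 in all 3 comparisons.

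**Figure D4:**
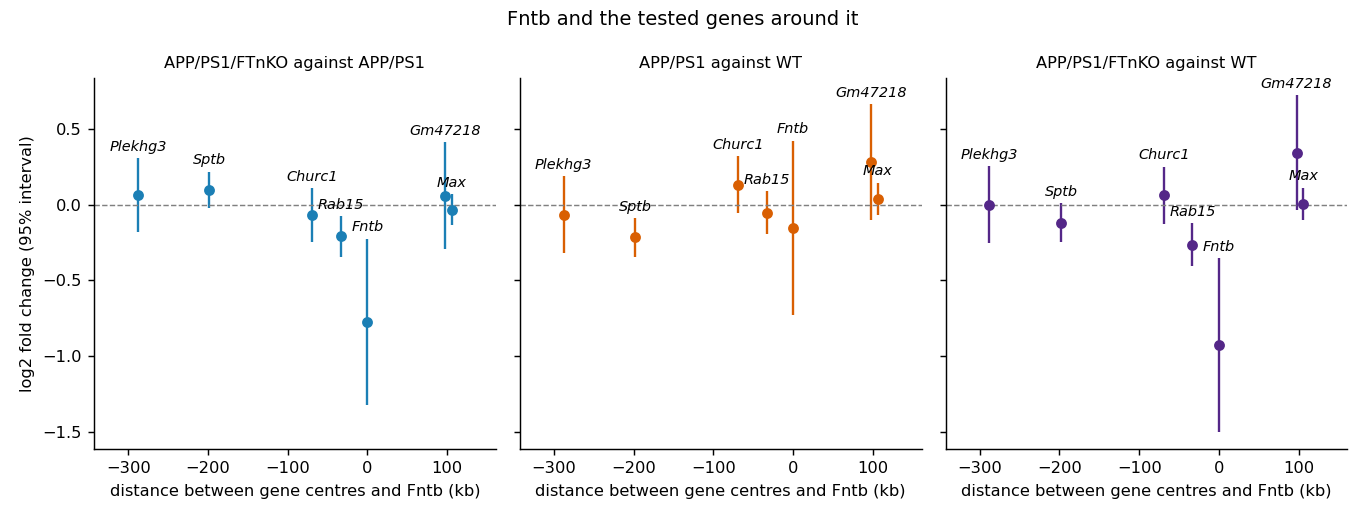
Log2 fold change with 95% interval (y axis) of Fntb and the 6 tested genes within 250 kb of it, by the distance of the gene centres from the centre of Fntb (x axis, kb), in the 3 genotype comparisons on 17 mice. Rab15 lay at -0.21 and -0.26 in the comparisons of APP/PS1/FTnKO mice, nearer to 0 than Fntb at -0.77 and -0.93.

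The genes whose levels followed Fntb most closely over the 17 mice, after removal of genotype and sex means, were Smc6 with a Pearson r of 0.839, Glrx5 with 0.81, AC139131.1 with 0.808, Zfp619 with 0.8 and 5430400D12Rik with 0.783. They were ranked by r out of all tested genes, so the values are a description. Within the 13 mice of the lower set, parted at 25 CPM of Fntb after the values had been seen, which narrows its range, r was 0.393, 0.543, 0.461, 0.174 and 0.928. Smc6, a subunit of a chromosome maintenance complex (chr12:11265886-11319785), had 39.5 to 43.1 CPM in the 4 mice with high Fntb and 34.6 to 40 in the other 13. Glrx5, a mitochondrial glutaredoxin (chr12:105032688-105042906), had 24 to 26.4 and 21.8 to 25.8. AC139131.1 had 0.55 to 1.11 and 0.235 to 0.797, Zfp619 5.3 to 6.64 and 3.9 to 5.95, and 5430400D12Rik 0.869 to 1.55 and 0.56 to 1.62. For each of the 5 the sets overlapped, and for 5430400D12Rik the 4 mice lay within the range of the other 13. Smc6 and Glrx5 lie on chromosome 12, as does Fntb, where 3.79% of tested genes lie, and the other 3 lie on chromosome 7, which holds 7.87% of them.

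The rest of the pathway was read from a list of 12 genes that supply the lipids, present the substrates or act on the products. Of the 12, 0 were called by edgeR, DESeq2 or limma-voom in any of the 3 genotype comparisons, and 1, 0 and 0 had an unadjusted p under 0.05 by each of these tools in APP/PS1/FTnKO against APP/PS1, APP/PS1 against WT and APP/PS1/FTnKO against WT mice. Of all genes 11.5%, 14% and 22.1% did so by edgeR. In the knockout comparison 10 of the 12 had a negative estimate, with a median of -0.041, as did 50.5% of all genes, with a median of -0.0016. Gdi2, which extracts Rab proteins from membranes, had 189 to 199 CPM (median 196) in APP/PS1/FTnKO and 198 to 221 (median 213) in APP/PS1 mice, which gave a log2 difference of -0.11 (SE 0.042, 95% interval -0.19 to -0.02, edgeR adjusted p = 0.33). The groups touched at 198 to 199 CPM.

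Of the lipid suppliers, Ggps1, which makes geranylgeranyl diphosphate, had 48.6 to 59.4 CPM over the 17 mice and a log2 fold change of 0.05 (SE 0.047, edgeR adjusted p = 0.752) in the knockout comparison. Fdps, which makes farnesyl diphosphate, was counted at only 0.891 to 2.23 CPM. It shares 1124 exonic bases with the annotated gene Gm43738 on the same strand, so that the counts depend on how shared bases were treated, and its value of -0.11 (95% interval -0.64 to 0.43) is uncertain. Ptar1, a further prenyltransferase α-subunit, differed by -0.10 (SE 0.073, edgeR adjusted p = 0.667).

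The carriers of prenylated proteins also showed no called change. Pde6d, Arhgdia, Arhgdib, Arhgdig, Rap1gds1 and Rabif lay between -0.20 and -0.01 in the knockout comparison, with edgeR adjusted p values of at least 0.703. Arhgdib, a carrier of prenylated GTPases in blood and immune cells, had the largest of these at -0.20 (SE 0.17). It was at 12 ± 3.33 CPM (SD, n = 6) in APP/PS1, 10.3 ± 1.17 (SD, n = 6) in APP/PS1/FTnKO and 9.39 ± 2.37 (SD, n = 5) in WT mice, while a list of 5 microglial genes summed to 270 to 383, 207 to 316 and 216 to 251 CPM with 0 of the 5 at 0, and their part in it was not tested. Pcyox1 and Pcyox1l, which belong to the breakdown of prenylated cysteines, differed by 0.00 and 0.05, with edgeR adjusted p values of 0.982 and 0.862.

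WT mouse 19622 departed from the others in these genes as well. It had 7 members above and 1 below the range of the 17 mice, 80% of the members, while 55.1% of all tested genes lay outside that range. Icmt was farthest, with 371 CPM (7472 counts) against a mean of 91.6 ± 4.34 (SD, n = 5) in the other WT mice, 4.05 times as high, and 4.38% of tested genes had a larger absolute log2 ratio. Fnta had 72.6 CPM, 1.86 times the WT mean, Fntb 37.9 (1.71 times), Pggt1b 42.5 (1.46 times) and Zmpste24 50.9 (1.45 times). Rabggta was the member below the range, with 35.9 CPM or 0.729 times the WT mean, and Chm and Rce1 lay within it. In the list of 12, 3 genes lay above the range and 4 below. Ptar1 was the farthest above, with 133 CPM or 2.55 times the WT mean, and Fdps the farthest below, with 0.497 CPM or 0.295 times, while Arhgdib, Arhgdig and Arhgdia had 0.387, 0.429 and 0.694 times. The mouse also had oligodendrocyte markers at 10100 CPM in sum, 5 of 5 above the 3170 to 7160 of the other mice, and choroid plexus markers at 1320 CPM, 4 of 4 above 2.23 to 437. The 4 neuron markers, Rbfox3 among them, summed to 722 CPM in this mouse, below the 3230 to 6150 of the other mice. Of the 4, 3 lay below their range and 1 above. The part of these markers in its levels was not tested.

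**Figure D5:**
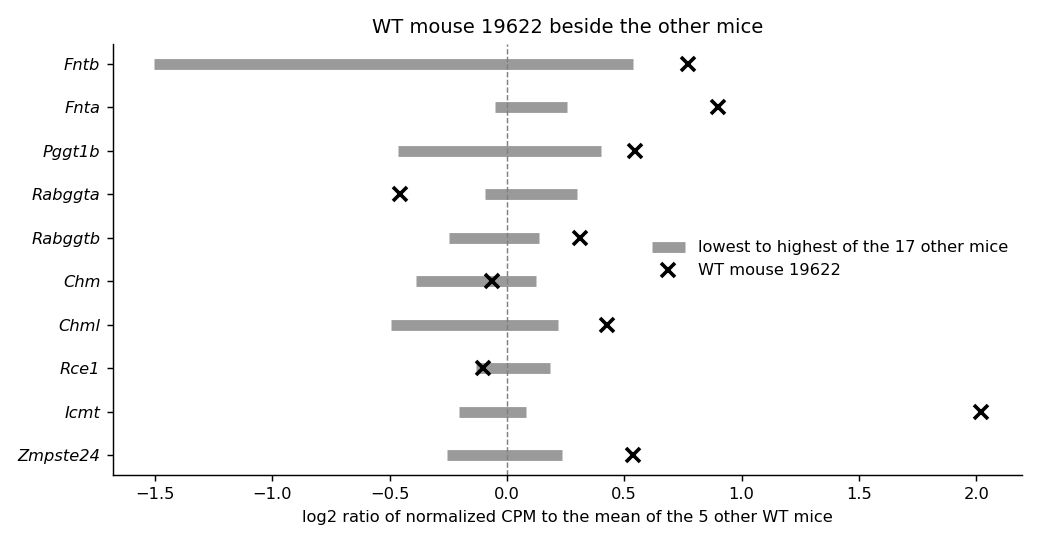
Log2 ratio of normalized CPM to the mean of the 5 other WT mice (x axis) for each prenylation enzyme gene, with WT mouse 19622 as a cross and the lowest to highest of the other 17 mice as a grey bar. The crosses of 8 of 10 genes lie outside the bars, Icmt farthest at 2.02 and Rabggta to the left at -0.46.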

How the data were processed

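The authors deposited raw counts per Ensembl gene, made with Trimmomatic 0.33, HISAT2 2.1.0 and featureCounts on GRCm38 (the record also lists mm9), and FastQC 0.11.7 for quality. The sources used here do not give the strand, multi-mapping and annotation settings of featureCounts. Of the table's columns 0 were unused. In R 4.3.3, edgeR 4.0.16 (quasi-likelihood test after TMM normalization and filterByExpr at a minimum count of 10, with sex and genotype as additive terms, the 3 genotypes in a single fit) was run over 17414 genes in 17 mice, with Benjamini-Hochberg adjustment over all of them and a threshold of 0.05. DESeq2 1.42.0, voom from limma 3.58.1 and the other settings of the closing section were alternatives. CPM are normalized by TMM, with 0.5 added before log2. Positions and exon lengths came from GENCODE M21 and promoter windows from RefSeq. The genes named are the 10 members, 12 genes that supply, present or break down prenylated proteins (a further gene of that list, and a further cell type marker, are not reported here), App, Prnp and Camk2a as checks, tested genes within 250 kb of Fntb, and the 5 genes most like it. Members and lists were chosen with earlier results of these data known. Totals were 15925432 to 21030935 counts a mouse. The Poisson counting error of the members was 2.46 to 6.81% of the level in a mouse, against a spread between mice (SD) of 3.15 to 40% within a genotype, and it was at least as large as the spread for Fnta in WT and APP/PS1 and for Rce1 in APP/PS1/FTnKO mice. The same held for Churc1 and Gm47218 in each genotype, and for Ggps1, Rabif and Max in some.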

Additional observations from a re-analysis of the deposited data

Results flagged for a closer look

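In 88 groups of 5 or 6 mice, made of the 10 enzyme genes and the 12 other pathway genes in the 3 genotypes, with the WT group taken with and without mouse 19622, the highest or lowest mouse was compared with the next one by Dixon's test, by which chance alone picks about 1 in 20 groups. It picked 8, of which 6 were WT mouse 19622: Fnta at 72.6 CPM (next 40.5), Rabggta at 35.9 (next 46.7), Icmt at 371 (next 96.9), Zmpste24 at 50.9 (next 36.9), Ptar1 at 133 (next 58.3) and Arhgdia at 200 CPM (next 279). The other 2 were Ggps1 at 59.4 CPM in WT mouse 19053 (next 51.5) and Pcyox1l at 21.5 CPM in APP/PS1 mouse 19619 (next 18.7). Fntb was not picked in any genotype.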

How the results depend on the processing

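Called members, and called genes among the 12 others of the pathway, stayed at 0 under the 27 alternatives of each genotype comparison, except that 1 member, Fntb, was called in APP/PS1/FTnKO against WT with DESeq2 (-0.925), with no filter on low counts (-0.923) and with only the 2 genotypes fitted (-0.84), and the cause was not tested. Fntb kept its sign in all 27 alternatives of both comparisons of APP/PS1/FTnKO mice, at -0.866 to -0.589 against APP/PS1 and -1.1 to -0.751 against WT with each mouse left out. In APP/PS1 against WT it moved from -0.154 to -0.398 with RIN as covariate and -0.325 with 18 mice. Leaving out 1 mouse moved the estimate by over 1.5 times for 8, 6 and 5 of the 10 members in the 3 comparisons, and in APP/PS1/FTnKO against APP/PS1 the exceptions were Fntb and Rabggta. Pggt1b there ranged from -0.241 to -0.0907. With 18 mice Icmt moved from -0.109 to -0.645 in APP/PS1/FTnKO and from -0.085 to -0.619 in APP/PS1 against WT. The exact permutation p of Fntb was 0.0108 on linear values and 0.00866 with RLE normalization.

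Some estimates near 0 changed sign and none of these was called. In APP/PS1/FTnKO against APP/PS1 they were Chm at -0.00234 in mice with a RIN of at least 8, and Rce1 at -0.000301 with 18 mice, -0.000353 with DESeq2 and -0.00143 with RIN as covariate. In APP/PS1 against WT they were Fnta at -0.124 with 18 mice and -0.00211 with RIN as covariate, Rabggta at -0.00359 with RIN as covariate and -0.018 at a RIN of at least 8, Rabggtb at 0.0103 at a RIN of at least 8 and Zmpste24 at -0.052 with 18 mice. In APP/PS1/FTnKO against WT they were Fnta at -0.0651 with 18 mice, and Zmpste24 at 0.00921 with RIN as covariate and 0.00459 at a RIN of at least 8. With each mouse left out, ranges that crossed 0 were -0.124 to 0.00179 (Chml), -0.0361 to 0.0258 (Rce1) and -0.0476 to 0.00402 (Icmt) in the first comparison, -0.338 to 0.0138 (Fntb), -0.0317 to 0.0422 (Rabggta) and -0.0358 to 0.029 (Rabggtb) in the second, and -0.114 to 0.0704 (Pggt1b) and -0.035 to 0.0127 (Zmpste24) in the third.

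Levels per kb used all annotated exons. With the length of the longest coding transcript, chosen after the data had been seen, the WT means were 25.2 for Rabggtb, 20.2 for Fnta, 18.6 for Icmt, 10.2 for Zmpste24, 8.48 for Fntb and 3.89 for Pggt1b, so that Icmt fell from first to below Rabggtb and Fnta and Zmpste24 passed Fntb, and the ratio of Fnta to both β-subunits was 2.36 to 3.23 in APP/PS1/FTnKO, 1.27 to 2.33 in APP/PS1 and 1.14 to 2.29 in WT mice. No paired analysis was possible because the groups share no replicate numbers.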
